A study of Mus musculus with 6 samples.

Results

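The genes described here encode nuclear receptors and the coregulators that bind them, in the inguinal fat pad (iWAT), a depot under the skin where thermogenic beige adipocytes appear in the cold. They were taken by gene symbol from a list of 39 genes, 33 receptors and 6 coregulators, and each had a row among the 23997 symbols of the deposited table. Of the 39 genes 33 reached a mean level of 0.5 FPKM across libraries and were tested among 12818 genes. FPKM counts sequenced fragments scaled by transcript length and by the mapped total of the library, so levels of different genes may be set side by side.

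The study compared Atf4AKO mice, which carry a floxed Atf4 gene and Cre recombinase driven by the adiponectin promoter of adipocytes, with Atf4WT mice, which carry the floxed gene and no Cre, in 3 libraries each. Mice of both genotypes were housed at 22 °C and then spent 12 h at 5 °C, so every library is from cold-exposed tissue. The whole pad was extracted, with cells in which adiponectin-driven Cre is not active. Cre and the loss of Atf4 went together and cannot be told apart, and the labels give neither sex, litter nor the number of animals in a library, so the spread behind each p-value is that between these libraries, and it may be technical.

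Nuclear receptors are transcription factors that bind DNA directly, and most are switched by small lipophilic ligands such as steroids, thyroid hormone, retinoids, oxysterols and fatty acids. Many of those studied here bind as pairs with a retinoid X receptor, steroid receptors bind as pairs of their own kind, and coactivators or corepressors recruited to the bound receptor open or close chromatin at the target gene. In fat, PPARγ drives adipocyte formation and lipid storage, glucocorticoid and thyroid hormone receptors tune lipid turnover and heat production, and the NR4A receptors are induced by adrenergic signals through cAMP. ATF4 itself is a basic leucine zipper factor of the integrated stress response.

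The promoters of the 3 NR4A genes are shown because these genes held the highest level in the group (Nr4a3) and 1 of the higher differences (Nr4a1). Each sequence runs from 250 bases before to 50 bases after a RefSeq transcription start (GRCm38.p6), read on the strand of the gene, and capitals mark the core of the cAMP response element, TGACG or its reverse complement CGTCA. Nr4a1 is at chr15:101266596-101266895 on the plus strand, Nr4a2 at chr2:57123954-57124253 on the minus strand, and Nr4a3 at chr4:48045055-48045354 on the plus strand.
Nr4a1: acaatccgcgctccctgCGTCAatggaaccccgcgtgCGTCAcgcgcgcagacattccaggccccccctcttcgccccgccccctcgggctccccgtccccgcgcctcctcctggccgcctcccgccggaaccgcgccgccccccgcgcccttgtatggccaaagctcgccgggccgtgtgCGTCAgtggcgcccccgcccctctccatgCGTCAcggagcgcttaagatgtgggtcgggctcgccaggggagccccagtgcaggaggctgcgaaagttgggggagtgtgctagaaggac
Nr4a2: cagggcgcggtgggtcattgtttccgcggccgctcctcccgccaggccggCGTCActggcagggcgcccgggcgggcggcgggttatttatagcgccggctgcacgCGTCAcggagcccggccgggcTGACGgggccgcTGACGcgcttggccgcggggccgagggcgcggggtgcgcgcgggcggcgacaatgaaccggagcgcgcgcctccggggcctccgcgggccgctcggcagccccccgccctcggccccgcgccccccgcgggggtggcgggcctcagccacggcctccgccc
Nr4a3: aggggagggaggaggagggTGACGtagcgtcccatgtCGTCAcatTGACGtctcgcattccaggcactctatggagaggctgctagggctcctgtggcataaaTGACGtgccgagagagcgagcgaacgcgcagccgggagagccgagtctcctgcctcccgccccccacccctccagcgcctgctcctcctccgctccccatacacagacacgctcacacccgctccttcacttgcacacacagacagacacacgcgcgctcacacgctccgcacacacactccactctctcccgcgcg
Each of the 3 promoters held 4 such cores. Of 32851 RefSeq promoters of this length, 76 (0.231%) held at least 4, and 3 of those 76 belonged to genes of the group. At least 1 core stood in 20.8% of all promoters and in 14 of the 54 promoters of the group, which belong to the 34 of its genes that had an entry. The full element TGACGTCA, which contains the core on each strand, was in 1.79% of promoters and in 1 of the 54, a promoter of Nr6a1.

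The composite site bound by ATF4 with a C/EBP partner was searched as TGATGNAA on both strands. It occurred in 3.97% of promoters and in 4 of the 54, those of Nr5a2, Nr6a1, Nrip1 and Esrra. The sites of Esrra and Nrip1, both expressed above 1 FPKM, are printed in windows of 30 bases with the match in capitals. The Esrra match starts 227 bases before the start site (window chr19:6922017-6922046, minus strand), and the Nrip1 match starts 159 bases before it (window chr16:76373968-76373997, minus strand).
Esrra: gccctccttcgTGATGCAAgggtgctccgg
Nrip1: ccctggctataTGATGTAAttgttatttat
A match of letters is a description of the sequence and no measure of binding. The site bound by a single NR4A protein, AAAGGTCA, was in 1.51% of promoters and in 2 of the 54, those of Rxra and Rxrg.

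The Atf4 transcript itself was lower in value in every Atf4AKO library. Atf4 was at 152, 140.2 and 114 FPKM in Atf4AKO 1, 2 and 3, against 258, 323 and 317 FPKM in Atf4WT 1, 2 and 3. The groups did not overlap, and the difference was -1.14 on the log2(FPKM + 1) scale (SE 0.16, limma adjusted p = 0.490). Here and below a difference is the mean of log2(FPKM + 1) in Atf4AKO minus that in Atf4WT, and adjusted p-values are Benjamini-Hochberg values over all 12818 genes with a threshold of 0.05. Sums of FPKM ran from 524158 to 717778, genes above 0 from 15939 to 16504, and the deepest library, Atf4WT 1, was 1.27 times as deep as the shallowest, Atf4AKO 3. Absolute depth is unknown.

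The libraries differed in marker RNA of several cell types. Skeletal muscle markers were positive in 18 of 18 tested genes and summed to between 30.4 and 10458 FPKM in Atf4AKO and between 28.3 and 1106 FPKM in Atf4WT, with Atf4AKO 1, Atf4AKO 2 and Atf4WT 2 high. Of 20 muscle markers up to 3 were listed at 0 in a library (among Myh1, Myh2, Myh7 and Actn3). Macrophage markers were positive in 16 of 16 and summed to between 811 and 3942 FPKM in Atf4AKO, highest in Atf4AKO 1, and between 358 and 895 FPKM in Atf4WT. Mammary and skin epithelial markers were negative in 17 of 18 and summed to between 5.63 and 267 FPKM in Atf4AKO and between 8.29 and 1388 FPKM in Atf4WT, highest in Atf4WT 1. Up to 7 of the 18, among them Krt5, Krt14 and Krt8, were listed at 0 in a library. Beige and brown adipocyte markers, none of them at 0, summed to between 1568 and 1721 FPKM in Atf4AKO and to 256, 4010 and 1215 FPKM in Atf4WT 1, 2 and 3. Fibroblast and preadipocyte markers were positive in 17 of 18 (2256 to 4367 FPKM in Atf4AKO and 1579 to 2452 FPKM in Atf4WT, summed) and neutrophil markers in 7 of 7 (74.6 to 384 FPKM in Atf4AKO and 50.03 to 90.9 FPKM in Atf4WT), both highest in Atf4AKO 1. In bulk tissue fewer cells of a type and less RNA per cell cannot be told apart.

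Across the group, no receptor or coregulator differed past the threshold. Limma called 0 of 33 tested genes higher and 0 lower, beside 2 higher (0.0156%) and 0 lower (0%) of all 12818 genes. Differences were positive in 18 and negative in 15, with a median of 0.04, beside a median of 0.00464 and 50.6% positive over all genes. An unadjusted p under 0.05 was reached by 1 gene in the higher direction, Nr3c1, and by 0 in the lower, where all genes gave 5.04% and 4.91%. The Atf4AKO libraries were all above those of Atf4WT in 2 of 33, Nr3c1 and Nr1h2, and below them in 1, Esr1, beside 8.21% and 8.34% of all genes. The 3 genes are thus no larger a share of the group than such genes are of the whole table.

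Differences ran from -0.38 for Nr2f2 to 0.80 for Nrip1, beside -0.51 at percentile 5 and 0.67 at percentile 95 of all tested genes. Of the group 31 of 33 were within 0.5 of zero, and in 29 the 95% interval lay wholly within 1 of zero. The median SE was 0.17, and adjusted p-values ran from 0.50 to 0.998. Rescaling each library to the same sum of FPKM moved the median of all genes to -0.12, and with it 12 of the 33 differences were positive and 21 negative, with a median of -0.09, 0 genes wholly above and 2 wholly below.

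**Figure D1:**
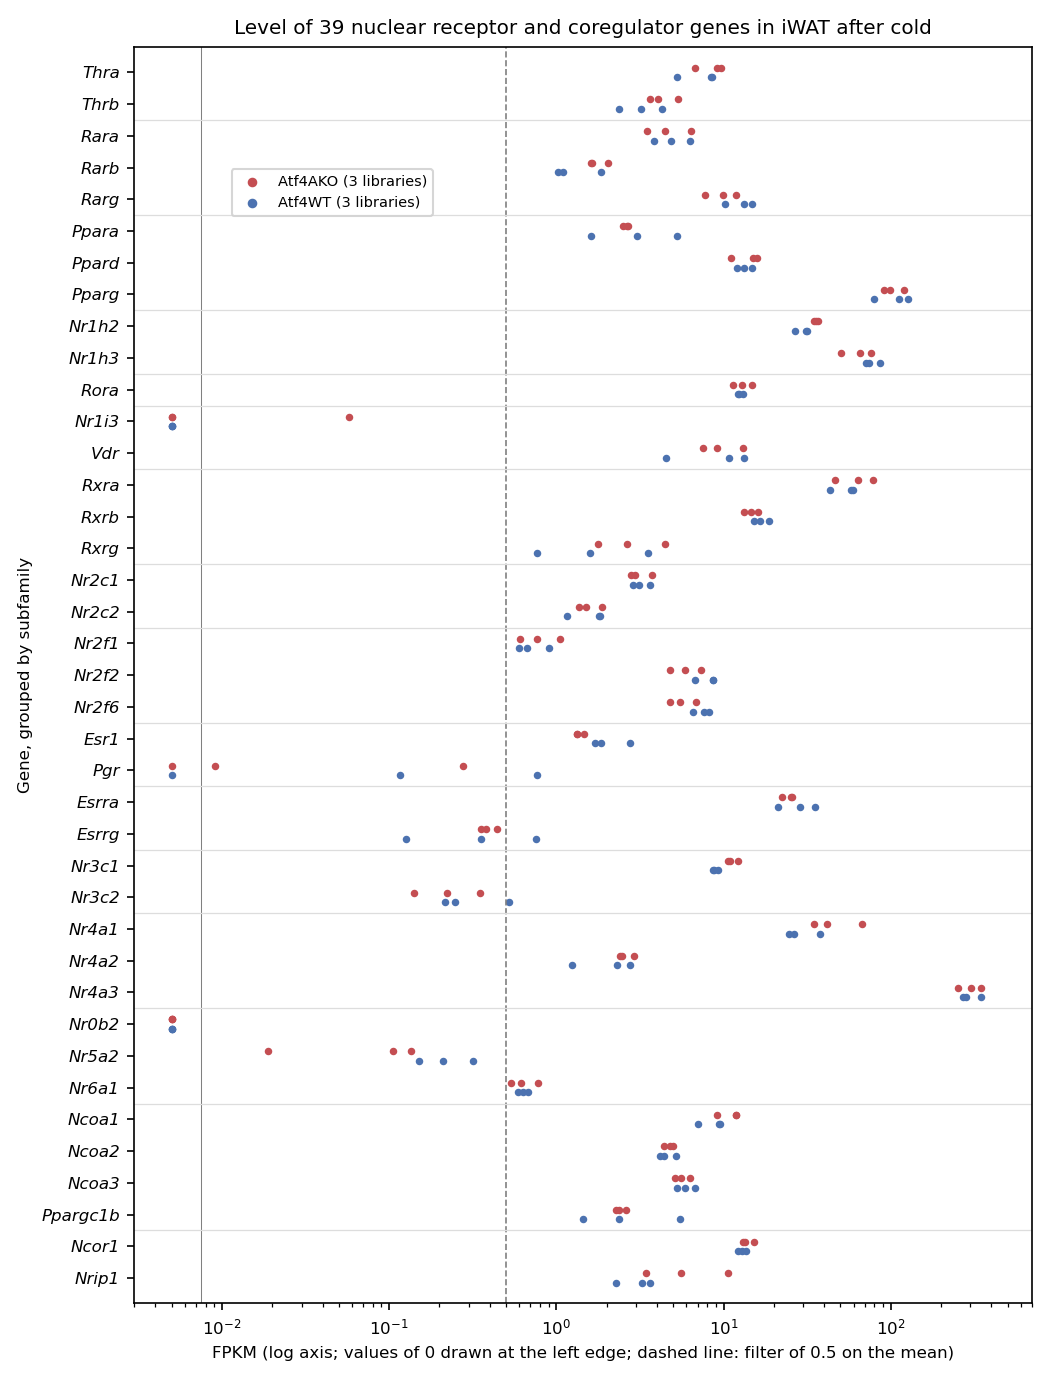
Level of the 39 nuclear receptor and coregulator genes in each library, in FPKM on a log axis, with Atf4AKO above Atf4WT in each row and 1 point per library. Nr4a3 and Pparg stand highest at means of 300.5 and 105 FPKM, 6 genes fall under the dashed line of 0.5 FPKM, and the groups interleave in most rows.

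**Figure D2:**
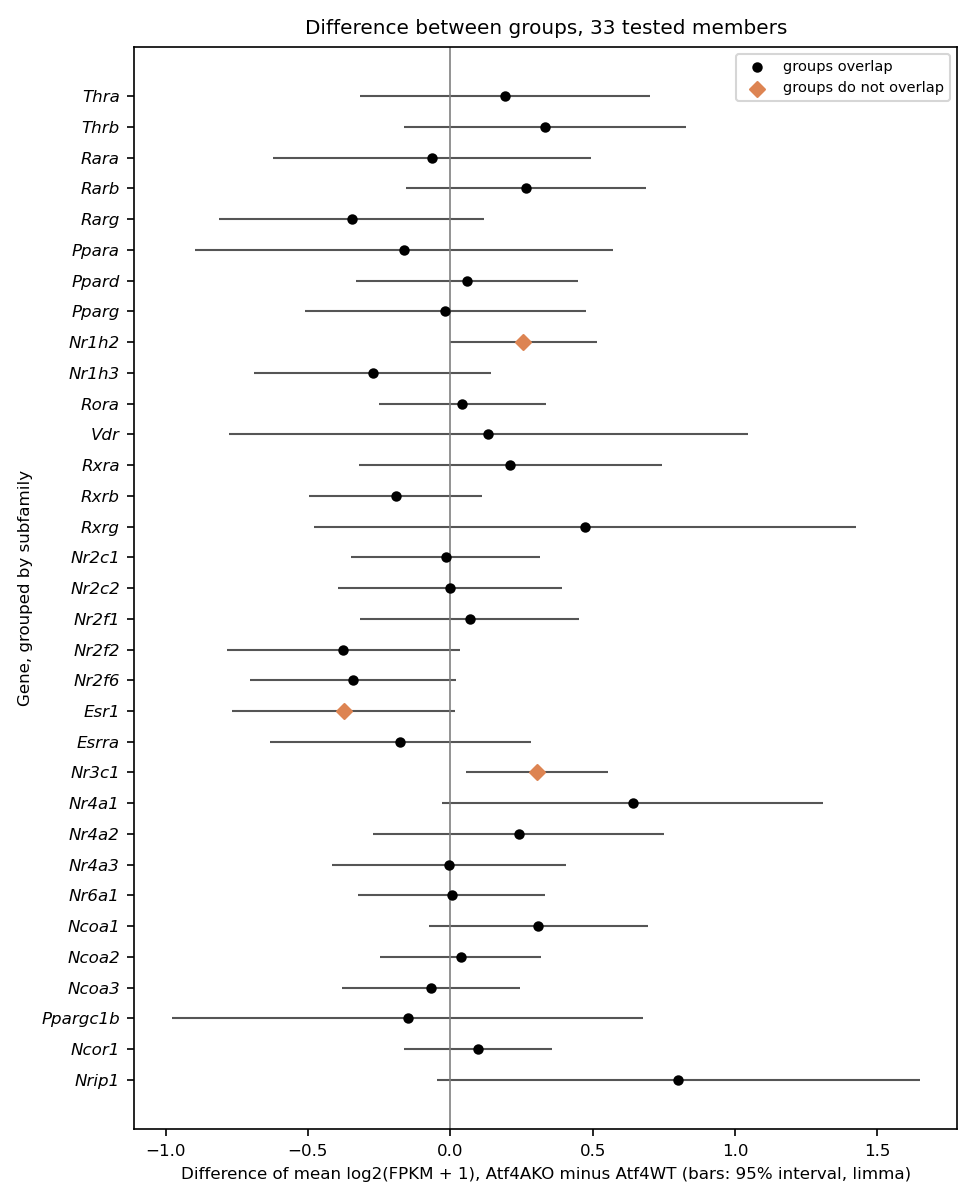
Difference of mean log2(FPKM + 1), Atf4AKO minus Atf4WT, for the 33 tested genes, with 95% intervals from limma. Diamonds mark Nr3c1, Nr1h2 and Esr1, whose groups do not overlap, and 1 interval, that of Nr3c1, lies clear of zero.

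Levels spanned a wide range. A mean of at least 100 FPKM was seen in 2 genes, 10 to under 100 FPKM in 11, 1 to under 10 FPKM in 18, 0.5 to under 1 FPKM in 2 and less than 0.5 FPKM in 6. Nr4a3 alone held 37.8% of the summed FPKM of the 39 genes and Pparg 13.2%. They were followed by Nr1h3 at 70.6 FPKM, Rxra at 58.0 FPKM, Nr4a1 at 38.8 FPKM, Nr1h2 at 32.8 FPKM and Esrra at 26.4 FPKM (means of 6 libraries).

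Among steroid receptors, the glucocorticoid receptor gene Nr3c1 had the smallest p of the group. It was at 10.6, 12.3 and 10.9 FPKM in Atf4AKO, against 9.27, 8.66 and 8.83 FPKM in Atf4WT. Every Atf4AKO library was above every Atf4WT library. Means were 11.3 ± 0.887 FPKM in Atf4AKO and 8.92 ± 0.317 FPKM in Atf4WT (SD, n = 3 each). The difference of 0.30 (SE 0.10, 95% interval 0.05 to 0.55) did not pass (limma adjusted p = 0.50), and an exact two-sided permutation test gave p = 0.1, the lowest that 3 against 3 libraries allow. After rescaling to equal sums the groups overlapped and the difference was 0.17, or 0.29 relative to the median of all genes. The gene spans 39410545 to 39519421 of chromosome 18, minus strand (GRCm38).

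The mineralocorticoid receptor gene Nr3c2, which also binds glucocorticoids, was under the filter, at 0.140, 0.349 and 0.221 FPKM in Atf4AKO and 0.519, 0.217 and 0.247 FPKM in Atf4WT. Nr3c1 was thus the main corticoid receptor transcript in every library.

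Esr1, which encodes oestrogen receptor α, was low and lay wholly below in Atf4AKO. Its level was 1.33, 1.33 and 1.46 FPKM in Atf4AKO, against 2.78, 1.70 and 1.85 FPKM in Atf4WT. The 3 Atf4AKO values were close together and the highest Atf4WT value was that of Atf4WT 1, the library with the most epithelial marker RNA. The other libraries did not keep that order. Atf4WT 3, with epithelial markers summing to 8.29 FPKM, was above Atf4WT 2 in Esr1, where they summed to 268 FPKM. The difference was -0.37 (SE 0.16, limma adjusted p = 0.503, exact permutation p = 0.1). It was -0.23 without Atf4WT 1 and -0.27 with the epithelial marker level as a covariate. Esr1 spans 4611593 to 5005614 of chromosome 10, plus strand.

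Pgr, the progesterone receptor gene and a classical target of oestrogen receptor, was under the filter. It was at 0.0091, 0 and 0.277 FPKM in Atf4AKO and at 0.768, 0.117 and 0 FPKM in Atf4WT. The 3 libraries above 0.1 FPKM, Atf4WT 1, Atf4AKO 3 and Atf4WT 2, were also the 3 with the highest epithelial markers. The part of epithelial cells in the values of Esr1 and Pgr was not tested beyond the covariate.

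The liver X receptors, oxysterol sensors of cholesterol efflux and fatty acid synthesis, differed in opposite directions in value. Nr1h2, which encodes the widely expressed LXRβ, was at 34.7, 35.9 and 36.8 FPKM in Atf4AKO, against 26.9, 31.1 and 31.7 FPKM in Atf4WT. All Atf4AKO libraries were above all Atf4WT libraries, with means of 35.8 ± 1.07 FPKM in Atf4AKO and 29.9 ± 2.63 FPKM in Atf4WT (SD, n = 3 each). The difference of 0.26 (SE 0.11) did not pass (limma adjusted p = 0.50), and after rescaling to equal sums it was 0.11, or 0.23 relative to the median of all genes, with overlap. Nr1h2 spans 44549616 to 44553951 of chromosome 7, minus strand.

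Nr1h3, which encodes LXRα and is the more abundant of the pair in fat, was at 50.7, 65.8 and 76.2 FPKM in Atf4AKO and 74.0, 71.1 and 85.8 FPKM in Atf4WT, with overlap (difference -0.27, limma adjusted p = 0.558). As a share of the LXR sum, which no scaling of libraries alters, Nr1h2 made up 32.6% to 40.6% in Atf4AKO and 26.6% to 30.4% in Atf4WT. The shares did not overlap. They were computed after the levels were seen and were not tested. Sums and shares of several other families were computed too, and most of those overlapped between the groups. Of all single genes 8.21% lay wholly above and 8.34% wholly below in Atf4AKO.

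**Figure D3:**
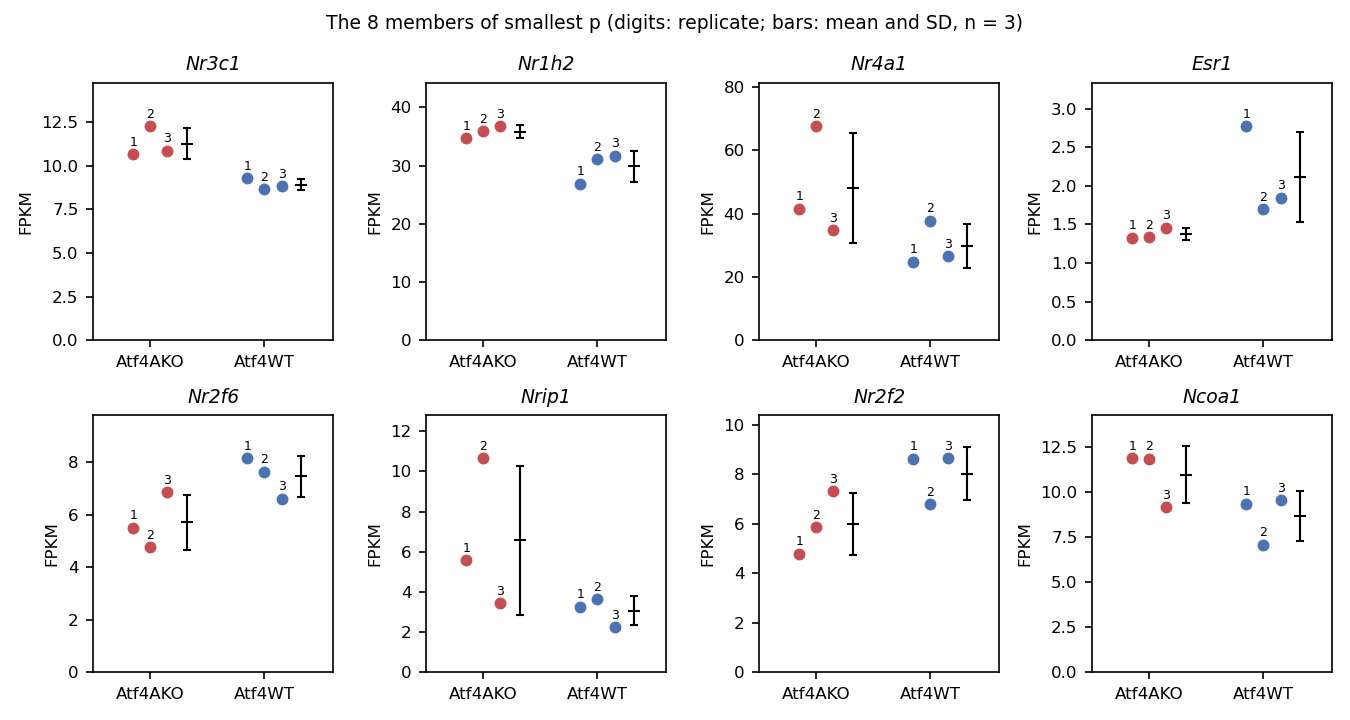
FPKM of the 8 genes of smallest p in each library, Atf4AKO left of Atf4WT, with digits for the replicate and bars for mean and SD (n = 3 each). Nr3c1, Nr1h2 and Esr1 separate the groups, whereas Nr4a1 and Nrip1 overlap and are highest in Atf4AKO 2 (67.7 and 10.7 FPKM).

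The NR4A receptors, orphan receptors whose transcripts accumulate within hours of adrenergic stimulation, ranged from the highest level of the group (Nr4a3) to a low one (Nr4a2). Nr4a3 was at 252, 301 and 348 FPKM in Atf4AKO and 270.4, 283 and 349 FPKM in Atf4WT, and the 95% interval of the difference ran from -0.42 to 0.41 (limma adjusted p = 0.994). Its level exceeded that of 97.5% of all tested genes, and it made up 81.1% to 90.4% of the NR4A sum in Atf4AKO and 87.5% to 92.4% in Atf4WT. The tissue was not sampled without cold, so these levels give no response to cold.

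Nr4a1 was higher in value in Atf4AKO, with overlap. It was at 41.5, 67.7 and 34.7 FPKM in Atf4AKO, against 24.8, 37.8 and 26.6 FPKM in Atf4WT. Atf4AKO 2 stood highest, and Atf4WT 2 was above Atf4AKO 3. The difference was 0.64 (SE 0.28, limma adjusted p = 0.503). Muscle markers were highest in Atf4AKO 2, and the difference was 0.33 with the muscle marker level as a covariate and 0.24 where Atf4AKO 3 was the one knockout library kept. Nr4a2, at 2.91, 2.40 and 2.46 FPKM in Atf4AKO and 1.24, 2.78 and 2.30 FPKM in Atf4WT, was the least abundant of the family (difference 0.24, limma adjusted p = 0.635).

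The peroxisome proliferator-activated receptors, sensors of fatty acids, overlapped between the groups in all 3 genes. Pparg was at 91.4, 98.7 and 121 FPKM in Atf4AKO and 79.5, 112 and 127 FPKM in Atf4WT (difference -0.02, 95% interval -0.51 to 0.48, limma adjusted p = 0.976). It held 84.7% to 86.9% of the PPAR sum in Atf4AKO and 84.8% to 88.6% in Atf4WT. Ppard, active in fatty acid oxidation, averaged 14.04 ± 2.62 FPKM in Atf4AKO and 13.3 ± 1.34 FPKM in Atf4WT (SD, n = 3 each).

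Ppara, the receptor of oxidative fat and liver, varied most among Atf4WT libraries. It was at 2.69, 2.66 and 2.504 FPKM in Atf4AKO and 1.62, 5.30 and 3.03 FPKM in Atf4WT, with the Atf4AKO values inside the Atf4WT range (difference -0.16, limma adjusted p = 0.824). Ppara is also 1 of the 11 beige and brown markers measured, so its course with that list is partly its own.

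The retinoid X receptors, shared partners of the PPAR, LXR, thyroid hormone and retinoic acid receptors, were led by Rxra. It was at 46.4, 77.9 and 63.7 FPKM in Atf4AKO and 43.2, 59.1 and 57.6 FPKM in Atf4WT (difference 0.21, limma adjusted p = 0.684), which was 73.0% to 81.5% of the RXR sum in Atf4AKO and 72.6% to 76.1% in Atf4WT. Rxrb averaged 14.6 ± 1.44 FPKM in Atf4AKO and 16.9 ± 1.82 FPKM in Atf4WT (SD, n = 3 each). Rxrg, a form enriched in muscle, was at 2.65, 4.48 and 1.77 FPKM in Atf4AKO and 0.770, 3.52 and 1.59 FPKM in Atf4WT. Its 3 highest libraries, Atf4AKO 2, Atf4WT 2 and Atf4AKO 1, were the 3 with high muscle markers. Its difference was 0.47 (SE 0.40, limma adjusted p = 0.62), and 0.05 (SE 0.30) with the muscle marker level as a covariate. It was 0.21 without Atf4AKO 2 and 0.16 without Atf4WT 1.

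Retinoic acid receptors were led by Rarg, the form common in skin and mesenchyme. It was at 11.9, 7.73 and 9.97 FPKM in Atf4AKO, against 14.8, 10.3 and 13.2 FPKM in Atf4WT (difference -0.35, SE 0.19, limma adjusted p = 0.534). In each group replicate 1 was highest and replicate 2 lowest, and the groups overlapped. Its share of the family sum was 58.3% to 62.2% in Atf4AKO and 64.3% to 69.2% in Atf4WT, without overlap and untested. Most such family shares overlapped, and of all single genes 8.34% lay wholly below in Atf4AKO and 8.21% wholly above. Rara averaged 4.78 FPKM in Atf4AKO and 5.00 FPKM in Atf4WT. Rarb, itself a retinoic acid target, averaged 1.77 FPKM in Atf4AKO and 1.32 FPKM in Atf4WT, and shares 1793 exonic bases with Top2b on the other strand, so its level is uncertain.

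Thyroid hormone receptors had positive differences in both genes. Thra was at 9.11, 9.66 and 6.76 FPKM in Atf4AKO and 8.49, 8.44 and 5.27 FPKM in Atf4WT (difference 0.19, limma adjusted p = 0.701). Thrb, the form that controls heat production in brown fat with Thra, was at 4.05, 5.37 and 3.63 FPKM in Atf4AKO and 2.38, 4.26 and 3.19 FPKM in Atf4WT (difference 0.33, limma adjusted p = 0.551). Both overlapped between groups. Exons of Thra share 263 bases with Nr1d1 on the opposite strand, and the strand setting of the read counting is not given, so both levels are uncertain.

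The COUP factors, orphan receptors that mostly repress transcription, had negative differences in their main members. Nr2f2, which marks mesenchymal and venous cells and restrains adipocyte formation, was at 4.799, 5.86 and 7.31 FPKM in Atf4AKO, against 8.63, 6.78 and 8.65 FPKM in Atf4WT (difference -0.38, SE 0.17, limma adjusted p = 0.504). Nr2f6 was at 5.50, 4.77 and 6.85 FPKM in Atf4AKO, against 8.14, 7.63 and 6.60 FPKM in Atf4WT (difference -0.34, SE 0.15, limma adjusted p = 0.504). In both genes Atf4AKO 3 lay inside the range of the Atf4WT libraries, and Atf4AKO 1 and 2 lay below it.

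The summed FPKM of the COUP factors was 11.2 to 14.9 in Atf4AKO and 15.1 to 17.7 in Atf4WT, without overlap and untested. Most family sums and shares overlapped, and of all single genes 8.21% lay wholly above and 8.34% wholly below in Atf4AKO. With Atf4AKO 3 as the only knockout library the differences were -0.11 for Nr2f2 and -0.10 for Nr2f6. Nr2f1 was near 0.764 FPKM over all libraries. Nr2f6 shares 1622 exonic bases with Ocel1 and Nr2f2 shares 643 with B130024G19Rik, on opposite strands, so their levels are uncertain.

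The oestrogen-related receptor α gene Esrra, which drives mitochondrial genes with PGC-1 coactivators, was at 25.5, 25.5 and 22.4 FPKM in Atf4AKO and 21.1, 35.1 and 28.5 FPKM in Atf4WT (difference -0.18, SE 0.19, limma adjusted p = 0.697). The Atf4AKO libraries lay inside the Atf4WT range. Esrrg was under the filter, between 0.126 and 0.753 FPKM, with its lowest and highest values both in Atf4WT. Rora, a receptor of circadian and lipid genes, was steady at 11.4, 14.8 and 12.9 FPKM in Atf4AKO and 12.3, 12.997 and 12.3 FPKM in Atf4WT. Vdr, the vitamin D receptor, varied widely within Atf4WT, from 4.53 to 13.2 FPKM, and between 7.53 and 13.2 FPKM in Atf4AKO.

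The remaining receptors were low or not seen. Nr2c1 and Nr2c2, the testicular receptors, averaged 3.17 and 1.58 FPKM in Atf4AKO and 3.21 and 1.59 FPKM in Atf4WT. Nr2c2 shares 4590 exonic bases with Mrps25 on the other strand, so its level is uncertain. Nr6a1 averaged 0.642 FPKM in Atf4AKO and 0.634 FPKM in Atf4WT. Nr5a2, a receptor of liver and steroid-making tissues, was at 0.106, 0.0188 and 0.134 FPKM in Atf4AKO, below 0.211, 0.151 and 0.316 FPKM in Atf4WT, too low to be tested. Nr1i3, the xenobiotic receptor CAR, was listed at 0 in all libraries but Atf4AKO 2 at 0.0572 FPKM, and Nr0b2, a corepressor-like receptor of liver, was listed at 0 in all 6.

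Among coregulators, Nrip1 had the greatest difference of the group. Its product is a corepressor that binds ligand-bound receptors and holds down oxidative and thermogenic genes in fat. It was at 5.60, 10.7 and 3.45 FPKM in Atf4AKO, against 3.28, 3.64 and 2.26 FPKM in Atf4WT. Atf4AKO 3 was below Atf4WT 2, so the groups overlapped, and the SD was 3.70 FPKM in Atf4AKO and 0.716 FPKM in Atf4WT. The difference was 0.80 (SE 0.35, 95% interval -0.05 to 1.65, limma adjusted p = 0.504).

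Leaving out Atf4AKO 2 gave 0.43 for Nrip1 and leaving out Atf4AKO 3 gave 1.13. It was 0.41 with the muscle marker level as a covariate and 0.15 where Atf4AKO 3 was the one knockout library kept. The order of the Nrip1 levels in Atf4AKO was that of the muscle markers. Nrip1 spans 76287400 to 76373827 of chromosome 16, minus strand.

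Ncor1, the other corepressor, which brings histone deacetylases to unliganded receptors, was at 13.04, 15.3 and 13.4 FPKM in Atf4AKO and 12.8, 12.3 and 13.6 FPKM in Atf4WT (difference 0.10, limma adjusted p = 0.704). The steroid receptor coactivators recruit histone acetyltransferases. Ncoa1 was at 11.9, 11.8 and 9.13 FPKM in Atf4AKO, against 9.34, 7.06 and 9.53 FPKM in Atf4WT (difference 0.31, SE 0.16, limma adjusted p = 0.522), but -0.042 with only the libraries of low muscle markers. Ncoa2 averaged 4.72 FPKM in Atf4AKO and 4.59 FPKM in Atf4WT, and Ncoa3 5.66 FPKM in Atf4AKO and 5.99 FPKM in Atf4WT. Ncoa3 made up 24.0% to 28.2% of the sum of the 3 in Atf4AKO and 28.9% to 33.1% in Atf4WT, without overlap and untested, whereas most such family shares overlapped.

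Ppargc1b, a coactivator of mitochondrial and lipid genes, followed Ppara across libraries. It was at 2.37, 2.59 and 2.27 FPKM in Atf4AKO and 1.45, 5.53 and 2.38 FPKM in Atf4WT (difference -0.15, limma adjusted p = 0.856). Ppara, Ppargc1b and Esrra each had their lowest level in Atf4WT 1 and their highest in Atf4WT 2. The beige and brown markers had the same extremes, at -1.92 and 1.29 (mean log2 relative to all 6 libraries), while the 3 Atf4AKO libraries lay between 0.20 and 0.37. Of the 33 tested genes 10 were lowest in Atf4WT 1 and 11 were highest in Atf4AKO 2. Atf4WT 1 also had the smallest sum of FPKM (524158) and Atf4AKO 2 the largest (717778). The share of all genes with these extremes was not computed, and the part of library scale in them was not tested.

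**Figure D4:**
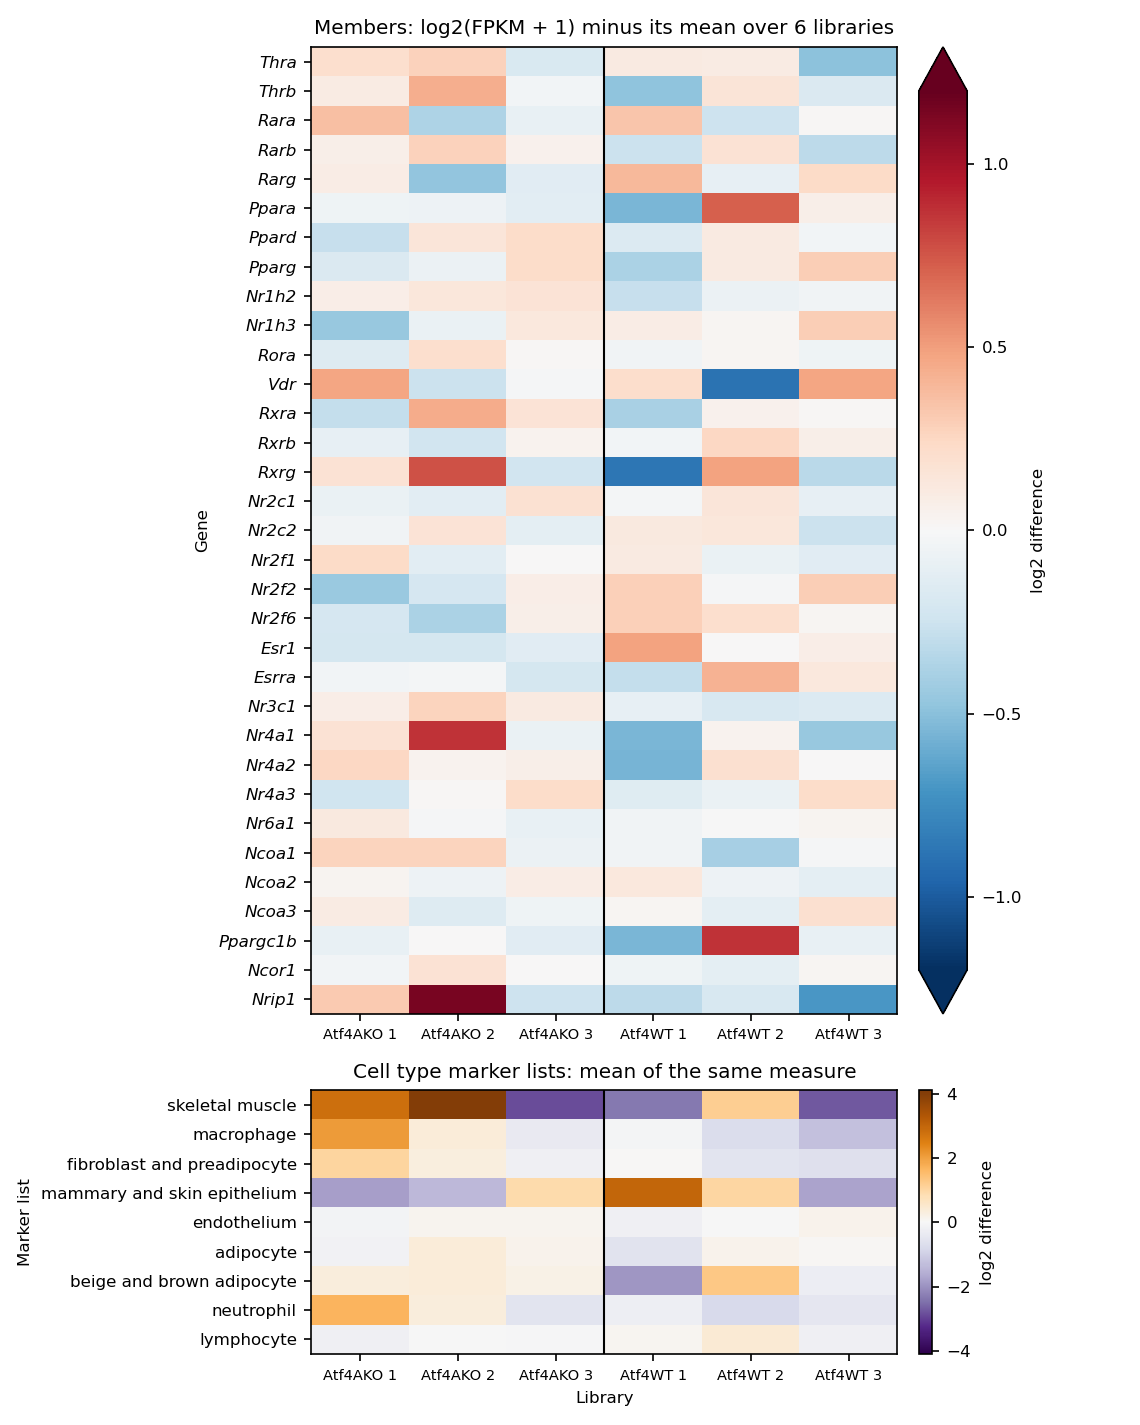
Level of each tested gene in each library relative to its mean over the 6 libraries (upper panel, log2 of FPKM + 1) and of 9 cell type marker lists on the same measure (lower panel), Atf4AKO left of Atf4WT. Nrip1, Nr4a1 and Rxrg are highest in Atf4AKO 2, where muscle markers peak at 4.01, and Ppara and Ppargc1b are highest in Atf4WT 2, where beige markers peak at 1.29. Atf4AKO 2 also has the largest sum of FPKM (717778).

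Receptors outside the 39 genes were read beside them. Of 15 further receptor genes 4 passed the filter. Nr1d1, the heme-binding clock repressor REV-ERBα, was at 58.3, 77.9 and 22.7 FPKM in Atf4AKO, against 8.74, 17.8 and 13.9 FPKM in Atf4WT, without overlap (difference 1.78, SE 0.47, limma adjusted p = 0.50). Nr1d2 had a difference of 0.61 with overlap. Of the 4 genes 0 passed the adjusted threshold, and Thra, which overlaps Nr1d1, is given above.

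Of 26 other coregulators tested, 10 were positive and 16 negative (median -0.06, or 13 each without Atf4AKO 1 and 15 positive without Atf4WT 3), and 0 passed. Of the 26, 3 lay wholly above and 4 wholly below in Atf4AKO, beside 8.21% and 8.34% of all genes. Ppargc1a, the cold-induced coactivator of mitochondrial genes, was at 14.9, 22.6 and 6.27 FPKM in Atf4AKO and 3.78, 8.61 and 4.95 FPKM in Atf4WT, with overlap (difference 1.11, limma adjusted p = 0.50). Nsd1, a histone methyltransferase, had a difference of -0.26, and Gps2, a subunit of the Ncor1 complex, one of 0.24, both without overlap. Chaperones of steroid receptors were 6 positive and 5 negative (median 0.01), with Ptges3 at -0.20 wholly below.

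Target genes of the receptors were read from lists for each receptor type, and by limma 0 of the genes on all 13 lists, partners included, passed over all genes. Glucocorticoid targets were positive in 16 of 20 with a median of 0.38, 7 had an unadjusted p under 0.05, and 8 lay wholly above Atf4WT and 0 below, where all genes gave 5.04% at that p in this direction and 8.21% wholly above. Without Atf4AKO 2 the median was 0.24 and 3 had such a p, as 3 did without Atf4WT 1 (median 0.27) and with the muscle or the epithelial covariate. With the macrophage covariate the median was 0.51 and 8 had such a p. With the replicate block 10 did, where 1119 genes in the higher and 850 in the lower direction, of all 12818, had one. Dusp1, a phosphatase of MAP kinases, was at 258, 269 and 194 FPKM in Atf4AKO, against 156, 158 and 157 FPKM in Atf4WT (difference 0.60). Klf9, a transcription factor induced by glucocorticoid and thyroid hormone, was at 94.99, 129 and 97.5 FPKM in Atf4AKO, against 70.7, 78.8 and 64.3 FPKM in Atf4WT (difference 0.57). Errfi1, an inhibitor of epidermal growth factor signalling, had a difference of 0.55, and the limma adjusted p of these 3 genes was 0.50. Lcn2 (-0.74), Sult1a1 (-0.40), Tsc22d3 (-0.29) and Hif3a (-0.05) were the negative ones, and Tsc22d3 and Fkbp5 (0.20, overlapping) are among the best known targets of the receptor. The median was 0.32 with the muscle marker level as a covariate, 0.16 after quantile normalization and 0.23 after rescaling to equal sums, where that of all genes was -0.12.

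Genes of the NR4A and cAMP response were positive in 11 of 14 with a median of 0.54. Of the 14, 5 lay wholly above Atf4WT and 0 below, beside 8.21% and 8.34% of all genes. Sik1, a kinase induced by cAMP, was at 106, 121 and 88.1 FPKM in Atf4AKO, against 64.0, 71.2 and 63.5 FPKM in Atf4WT (difference 0.65). Junb was at 137, 235 and 90.2 FPKM in Atf4AKO, against 59.5, 62.9 and 70.5 FPKM in Atf4WT (difference 1.14), and Fosl2 had a difference of 0.41. The limma adjusted p of each was 0.50. The list includes the NR4A genes themselves and Eno3, a muscle marker with a difference of 2.38. Across all alternatives the median ran from 0.24, where Atf4AKO 3 was the one knockout library kept, to 0.62 without that library.

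Thyroid hormone targets were positive in 8 of 9 (median 0.84), but in 6 of 9 without Atf4WT 1 (median 0.46). The median was also 0.46 with the muscle covariate. The list holds Ucp1 and Dio2, which are also on the beige and brown marker list, and Atp2a1, which is also on the muscle list. Their course with those markers is thus partly their own. Dbp, an output gene of the circadian clock, was at 4.22, 5.74 and 2.997 FPKM in Atf4AKO, against 1.83, 2.73 and 1.32 FPKM in Atf4WT (difference 0.84, without overlap), and the lipogenic gene Thrsp had a difference of 0.92 with overlap. PPARγ targets were positive in 15 of 20 (median 0.26), with 0 wholly above or below. Adipocyte markers, which share genes with this list such as Fabp4, Adipoq and Plin1, were positive in 11 of 15 (median 0.24). They summed to between 63736 and 97441 FPKM in Atf4AKO and between 55286 and 77836 FPKM in Atf4WT. Pparg itself is also on the target list. The median of the PPARγ targets was 0.09 without Atf4AKO 2, without Atf4WT 1 or after quantile normalization. It rose to 0.37 without Atf4AKO 1 and to 0.43 with the macrophage covariate, where 20 of 20 were positive. It was 0.11 after rescaling to equal sums, where that of all genes was -0.12. Gpd1, a glycerol phosphate enzyme gene, had a difference of 1.21 and Cebpa, an adipocyte transcription factor gene, one of 0.66, both with overlap.

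PPARα and PPARδ targets were divided in sign, with 11 positive and 11 negative (median 0.03). After rescaling to equal sums 6 were positive and 16 negative (median -0.12), where the median of all genes was also -0.12. The split turned on single libraries, with 5 positive and 17 negative without Atf4WT 1 (median -0.29), 13 positive and 9 negative without Atf4WT 2 (median 0.15), and 16 positive and 6 negative with only the libraries of low muscle markers (median 0.38). The peroxisomal enzyme gene Ehhadh was at 326, 331 and 1031 FPKM in Atf4AKO, against 1285, 1106 and 1407 FPKM in Atf4WT (difference -1.39). Acot1, an acyl-CoA thioesterase gene, was at 5.91, 4.18 and 15.8 FPKM in Atf4AKO, against 28.2, 28.4 and 17.95 FPKM in Atf4WT (difference -1.59), and Acot2 had a difference of -0.56. These 3 lay wholly below Atf4WT, beside 8.34% of all genes, with Atf4AKO 3 nearest to it for Ehhadh and Acot1. The Acot genes are near-identical copies whose reads may be split. Ppara itself overlapped between the groups.

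LXR targets were negative in 7 of 11 (median -0.19), a direction that did not hold with the macrophage marker level as a covariate, where 6 were positive and 5 negative (median 0.033). The median was -0.11 without Atf4AKO 1 and -0.0045 without Atf4AKO 1 and 2. Pltp, which transfers phospholipid between lipoproteins, was at 134, 90.0 and 88.9 FPKM in Atf4AKO, against 69.7, 83.3 and 62.5 FPKM in Atf4WT (difference 0.51). Srebf1, the activator of fatty acid synthesis, was at 11.2, 7.94 and 12.5 FPKM in Atf4AKO, against 17.6, 14.9 and 12.6 FPKM in Atf4WT (difference -0.48), and Mylip had a difference of -0.47 with overlap. Pltp was highest in Atf4AKO 1, which also had the most macrophage marker RNA, and for Pltp alone the part of macrophages was not tested.

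Oestrogen-related receptor targets, mostly mitochondrial enzymes and carriers of electrons, were positive in 12 of 14 with a median of 0.22. Without Atf4WT 1, 2 were positive and 12 negative (median -0.15), and with the muscle covariate 7 were positive and 7 negative (median 0.02). The median was 0.48 without Atf4WT 2 and 0.12 without Atf4AKO 2. Their genes of smallest p, Pdk4 (0.49), Cox6c (0.32) and Atp5b (0.24), were lowest in Atf4WT 1. Retinoic acid targets were 4 positive and 3 negative (median 0.01), oestrogen targets 4 positive and 2 negative (median 0.11), and 1 vitamin D target, S100g, passed the filter. Ltf and Prlr, the oestrogen list's most negative genes, were at 116 and 19.3 FPKM in Atf4WT 1, the library richest in epithelial markers. Rescaling to equal sums moved the median of all genes to -0.12, so counts of positive genes fall with it. The positive genes were then 7 of 26 other coregulators, 3 of 11 chaperones, 7 of 9 thyroid hormone targets and 9 of 14 oestrogen-related receptor targets. The 13 lists share 9 genes between them. They also share genes with the marker lists, such as Fabp4, Ucp1 and Eno3, and with the group itself, such as Pparg and Nr1h3. Counts of these lists are therefore not independent.

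**Figure D5:**
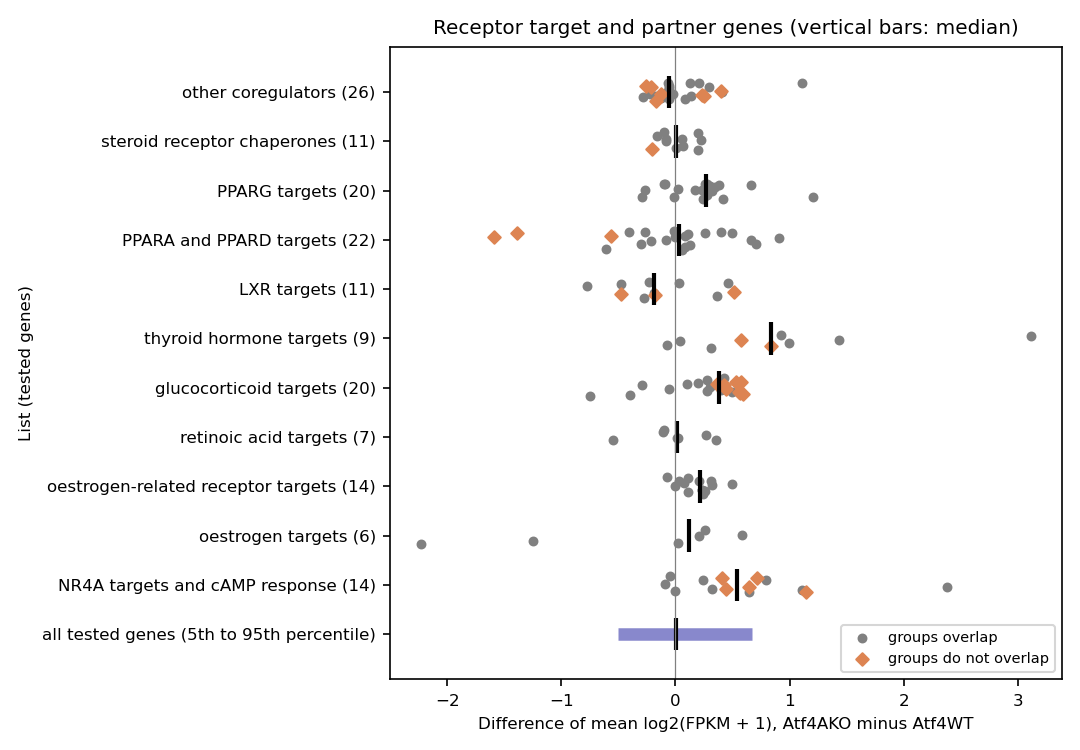
Difference of mean log2(FPKM + 1), Atf4AKO minus Atf4WT, for the tested genes of 11 lists, 1 point per gene with the list median as a vertical bar and the span from percentile 5 to 95 of all tested genes at the foot. Glucocorticoid targets and NR4A and cAMP genes have medians of 0.38 and 0.54 against 0.00464 for all genes, and their genes without overlap between groups (diamonds) all lie above zero.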

How the data were processed

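Messenger RNA of 6 iWAT libraries was measured. RNA was isolated with TRIzol and stranded mRNA libraries were made, per the labels' protocols. The authors deposited FPKM per gene symbol and library, on genome build mm10 per the submitters' processing notes. The aligner, the quantifier, the annotation and the strand setting were not given in the sources used here. Deposited FPKM values vary with the transcript length used, and in a library with a few very abundant transcripts the others come out lower. Table columns carry the sample descriptions, which tied them to samples.

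Genes averaging 0.5 FPKM or more were kept, and limma 3.58.1 (R 4.3.3, eBayes with trend) was fitted to log2(FPKM + 1), with Benjamini-Hochberg adjustment over all 12818 genes. The procedure was checked on simulated data with independent noise and shifts larger than any difference of the group, so the check gives no power for differences of this size. Alternatives were 20 in number. Gene coordinates and overlaps came from the GENCODE annotation of GRCm38 and promoters from RefSeq (GRCm38.p6).

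The genes and lists were chosen with earlier results of these data known. Values of each library are given for the 8 genes of smallest p, genes of the group without overlap and the main receptor of most subfamilies. For Vdr, Nr2c1 and Nr6a1, which lead their subfamilies, ranges or means are given instead. Up to 3 genes of smallest p are named per list. Other genes were chosen after their values were seen. For 2 genes of the lists no value is reported here.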

Additional observations from a re-analysis of the deposited data

How the results depend on the processing

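Under all 20 alternatives limma called 0 of the receptors and coregulators, and the smallest adjusted p of any of them ran from 0.152 (Nrip1 without Atf4AKO 3) to 1. The count of genes called higher among all genes, 2 with all libraries, was 0 with the replicate number as a block, 1 with the muscle covariate, 0 with the macrophage covariate, 1 with the epithelial covariate, 0 without Atf4AKO 1 and 2, and 0 with only the libraries of low muscle markers, an alternative chosen after seeing the data. Leaving out 1 library at a time gave 1 to 3 genes called higher (1 without Atf4AKO 1, Atf4WT 1 or Atf4WT 2) and 0 to 2 called lower (2 without Atf4WT 2, 0 with all libraries). Ncoa1 turned to -0.042 with only the libraries of low muscle markers. Same-numbered libraries correlated at 0.08, 0.40 and 0.07 in their deviations from group means, and 4 of 6 libraries correlated best with their own number. These values do not settle whether the numbers are pairs, and the main fit did not take them as pairs. With the replicate block the smallest limma adjusted p of the group was 0.292, and 5 of its 33 tested genes had an unadjusted p under 0.05. In that fit 1119 genes in the higher and 850 in the lower direction, of all 12818, had such a p. Atf4 ranged from -1.38 to -1.02. FPKM gives no absolute depth and hence no counting interval. Fits with 1 knockout library assume that it varies like Atf4WT. The causes of these shifts were not tested.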
